A study of Mus musculus with 8 samples.

Results

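Transcripts of programmed cell death and of the p53 response, namely Bcl2l11, Pmaip1, Apaf1, Perp and Ddit4, were followed through sorted fractions of mouse embryonic stem (ES) cells that report early endoderm gene expression. The members were chosen by symbol: each of the 5 was paired with 1 array probe in the rows used here of the study's own list of probes that differed among these fractions, of 42006 distinct probes on the array and 29484 tested. Since that list was drawn up from the same arrays, a difference of a member among fractions is not independent evidence that the gene varies. HV cells, labelled HIV in the sample records, are 129/Ola ES cells with a gene knock in: a tagged Hex cDNA, a synthetic internal ribosome entry site and Venus, a yellow fluorescent protein, placed into the Hex gene of a parental line that makes the BirA ligase from ROSA26. Venus thus reports transcription of Hex, an early marker of primitive endoderm (PrEn), while the carbohydrate antigen SSEA-1 marks the surface of undifferentiated ES cells. Every sample came from cells plated at 200000 cells/ml and grown for 24 h with LIF under self-renewing conditions, then divided by flow cytometry. Of the SSEA-1-positive cells the Venus-negative are named V-S+ and the Venus-positive V+S+, and the cells without SSEA-1 are likewise V-S- or V+S-. Clones 5.1 and 16.1 each gave all 4 fractions, which makes 8 samples with 2 per fraction, and each clone is a single targeted line.

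Intrinsic apoptosis is set off when BH3-only proteins, such as BIM (from Bcl2l11) and NOXA (from Pmaip1), neutralise the survival members of the BCL-2 family at the mitochondrion. Cytochrome c then leaves the mitochondrion and binds APAF1, the scaffold of the apoptosome, on which caspase-9 is activated. Pmaip1, Apaf1, Perp and Ddit4 are textbook responders to the transcription factor p53. PERP is a tetraspan membrane protein of desmosomes that also acts as an effector of p53 in cell death, and DDIT4 (REDD1) restrains mTORC1 during stress and hypoxia. Bcl2l11 is better known as a target of FOXO factors after withdrawal of growth factors.

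Each measurement rested on 1 probe of 60 bases, and no other probe on the array shared 20 bases with it on either strand. The first 30 bases of 4 of these probes, given 5′ to 3′ as the scanner files list them, show which stretch of each transcript was hybridised.
Bcl2l11 probe, bases 1 to 30: gactatttattagattagaaagtcatgttt
Apaf1 probe, bases 1 to 30: aacaaaatcttgtatagggttaaggaaggt
Perp probe, bases 1 to 30: tacttacctaatggaaacgagcttgtttta
Ddit4 probe, bases 1 to 30: tgaagttactcgcggttcatgaatacactt
The GC content of these 4 whole probes lay between 35.0% and 36.7%, so base composition was much alike. All 5 member probes were well above background in 8 of 8 samples. Cy3 signal was between 25.6 and 65.8 times the local background for Apaf1 and between 313 and 995 times for Ddit4.

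Since the members moved together, the bases ahead of their transcription starts are shown for the 3 members present in the RefSeq promoter table (GRCm38.p6). Each line holds 250 bases up to the start, 5′ to 3′ on the strand of the gene, with matches to 4 short motifs in capitals. For Bcl2l11 the first of its annotated starts is given, at chr2:128125788-128126037 on the plus strand. The Apaf1 stretch is chr10:91082744-91082993 and the Ddit4 stretch chr10:59951771-59952020, both on the minus strand.
Bcl2l11: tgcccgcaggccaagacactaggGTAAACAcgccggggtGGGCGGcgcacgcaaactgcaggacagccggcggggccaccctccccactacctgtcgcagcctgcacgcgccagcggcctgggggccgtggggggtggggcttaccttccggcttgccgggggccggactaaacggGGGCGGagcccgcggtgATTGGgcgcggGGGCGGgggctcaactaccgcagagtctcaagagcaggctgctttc
Apaf1: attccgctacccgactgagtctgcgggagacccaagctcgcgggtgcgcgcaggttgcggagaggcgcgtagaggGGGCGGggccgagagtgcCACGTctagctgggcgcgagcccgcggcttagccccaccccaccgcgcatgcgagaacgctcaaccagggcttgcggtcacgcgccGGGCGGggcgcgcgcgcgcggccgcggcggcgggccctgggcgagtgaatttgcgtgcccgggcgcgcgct
Ddit4: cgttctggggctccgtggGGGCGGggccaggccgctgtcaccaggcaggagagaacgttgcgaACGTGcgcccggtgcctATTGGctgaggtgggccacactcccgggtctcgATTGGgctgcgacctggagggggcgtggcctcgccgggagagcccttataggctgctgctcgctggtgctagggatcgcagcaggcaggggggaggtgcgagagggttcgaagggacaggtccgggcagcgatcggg
The motifs, picked after these sequences had been seen, were searched on both strands and their matches did not overlap. The FOXO core GTAAACA occurred in the Bcl2l11 stretch, from 227 to 221 bases before the start, and in 3.17% of 32851 promoter stretches of the same length. The other annotated start of Bcl2l11 had no match to it. The GC box GGGCGG was in all 3 stretches and in 32.7% of promoters. GC content was between 70.0% and 75.6% in these stretches, against a median of 52.4% over all promoters. Apaf1 (on the opposite strand, read as CACGT) and Ddit4 held the hypoxia response core ACGTG, which 16.6% of promoters hold. The CCAAT box stood in reverse in Bcl2l11 and Ddit4, against 33.8% of promoters. The p53 consensus decamer, found in 7.13% of promoters, had no match in these 3 stretches. Bases farther upstream or past the start were not searched, so a match elsewhere in these genes is not excluded.

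Values are log2 ratios of Cy3 (sample) to Cy5 (a common reference pooled from 11 mouse cell lines) after background correction and loess, averaged over the 2 scans of each array. Repeat scans of a member differed by at most 0.12. Dyes were not swapped, so a ratio to the reference may hold a dye effect, while differences between fractions are taken within 1 dye orientation. The fractions of a clone shared 1 slide that held no other clone, and effects of clone and slide therefore cannot be told apart. In sorted bulk samples, more cells of an expressing type and more RNA per cell cannot be told apart. Differences were tested with limma over 29484 probes, and a probe was called where its Benjamini-Hochberg FDR was at most 0.05 and it changed by over 1.5-fold.

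All 5 members were higher in Venus-positive than in Venus-negative cells. For each of them, every one of the 4 Venus-positive samples lay above every one of the 4 Venus-negative samples, an arrangement shown by 16.7% of all probes tested. The mean difference was largest for Perp, at 1.25 ± 0.20 on the log2 scale (SE, 2.38-fold), and smallest for Apaf1, at 0.65 ± 0.07 (1.57-fold). Bcl2l11 differed by 0.86 ± 0.09, Pmaip1 by 0.97 ± 0.19 and Ddit4 by 0.98 ± 0.18. With limma, 5 of 5 were called higher in this comparison (adjusted p between 0.00779 and 0.0173), where 5.25% of all probes were. Without V-S+ of either clone, V-S- of clone 5.1 or V+S- of clone 16.1, 3 of 5 were called, and the probes called higher over the whole array fell from 1549 to between 397 and 682 of 29484. The gap between the lowest Venus-positive and the highest Venus-negative sample was widest for Bcl2l11 (0.47) and narrowest for Apaf1 (0.19).

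**Figure D1:**
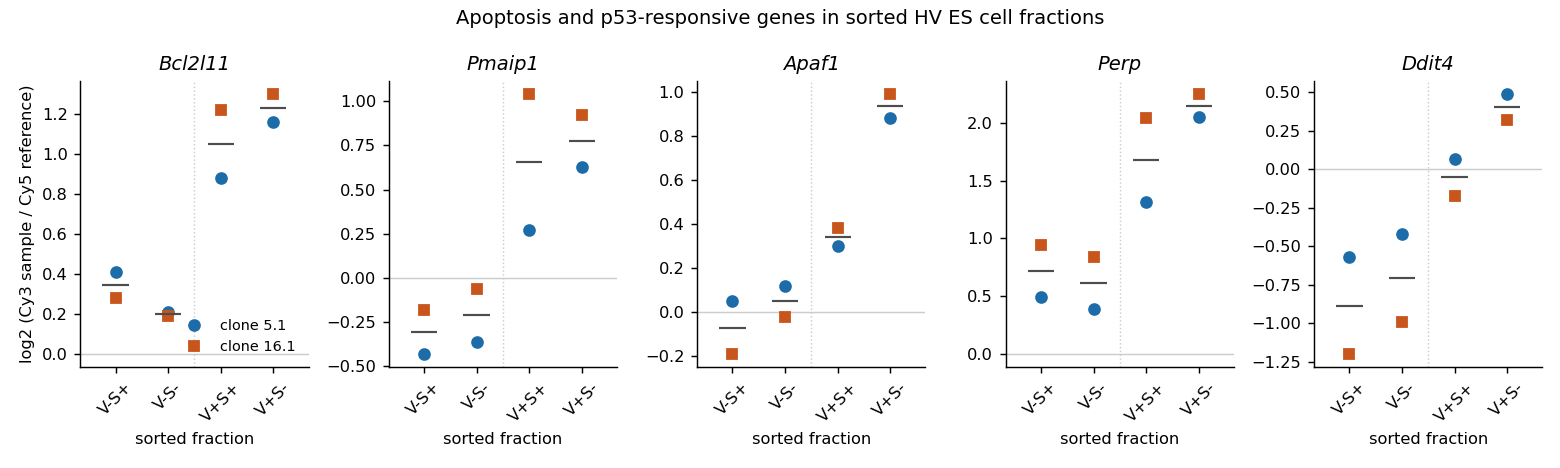
Log2 ratio of sample to reference (y axis) of each member in the 4 sorted fractions (x axis), with 1 point per clone and a bar at the mean of the 2 clones. The dotted line divides Venus-negative (left) from Venus-positive fractions (right), and in each panel all 4 points on the right lie above all 4 on the left, with gaps between 0.19 and 0.47.

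Of the 2 BH3-only genes, Bcl2l11 had log2 ratios of 0.41 in V-S+ cells of clone 5.1 and 0.28 in those of clone 16.1, and of 0.21 and 0.19 in the V-S- fractions. In V+S+ cells it stood at 0.88 in clone 5.1 and 1.22 in clone 16.1, and in V+S- cells at 1.16 and 1.30. Both clones gave one order, with V-S- lowest, V-S+ next, then V+S+, and V+S- highest. The Venus-positive fractions overlapped each other, the Venus-negative ones were narrowly apart, and the wide gap lay between cells with and without Venus. V+S- exceeded V-S+ by 0.88 ± 0.12 (SE, 1.84-fold; limma, adjusted p = 0.0157) and V-S- by 1.03 ± 0.12 (2.04-fold; adjusted p = 0.0119).

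Pmaip1 lay below the reference in Venus-negative cells, with log2 ratios of -0.43 (clone 5.1) and -0.18 (clone 16.1) in V-S+ and of -0.36 and -0.06 in V-S- cells. It stood at 0.27 and 1.04 in V+S+ and at 0.63 and 0.92 in V+S- cells. The V+S+ samples were the farthest apart of any member and fraction, with an SD of 0.54 (n = 2), and enclosed both V+S- samples. Pmaip1 exceeded V-S+ in the V+S- fraction by 1.08 ± 0.26 (2.11-fold; limma, adjusted p = 0.0411) and V-S- by 0.98 ± 0.26 (adjusted p = 0.0484), both close to the threshold.

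Apaf1 was near the reference level in Venus-negative cells, at log2 ratios of 0.05 and -0.19 in V-S+ and 0.12 and -0.02 in V-S- cells of clones 5.1 and 16.1. In V+S+ cells it reached 0.30 and 0.38, and in V+S- cells 0.88 and 0.99. The 2 Venus-positive fractions did not overlap, and the lower V+S- sample stood 0.50 above the higher V+S+ sample. Apaf1 had the smallest adjusted p of the members in V+S- against V-S+ (1.01 ± 0.10, 2.01-fold; limma, adjusted p = 0.012), and V+S- exceeded V-S- by 0.89 ± 0.10 (adjusted p = 0.0118).

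Perp showed the widest range. Its log2 ratio was 0.49 in clone 5.1 and 0.94 in clone 16.1 for V-S+, 0.39 and 0.84 for V-S-, 1.32 and 2.04 for V+S+, and 2.05 and 2.25 for V+S-. Clone 16.1 was the higher of the clones in every fraction. The fractions with Venus nearly touched, since V+S+ of clone 16.1 (2.04) came close to V+S- of clone 5.1 (2.05). V+S- exceeded V-S+ by 1.44 ± 0.28 (2.71-fold; limma, adjusted p = 0.0268) and V-S- by 1.53 ± 0.28 (2.89-fold; adjusted p = 0.0218).

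Ddit4 crossed from below to above the reference. Its log2 ratios were -0.57 and -1.20 in V-S+, -0.42 and -0.99 in V-S-, 0.07 and -0.17 in V+S+, and 0.49 and 0.32 in V+S- cells of clones 5.1 and 16.1. Here clone 5.1 was the higher in every fraction, the reverse of Perp and Pmaip1, and the clones were closer in Venus-positive than in Venus-negative cells. V+S- exceeded V-S+ by 1.29 ± 0.26 (2.45-fold; limma, adjusted p = 0.0274) and V-S- by 1.11 ± 0.26 (adjusted p = 0.0356).

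In V+S- against V-S+, 5 of 5 members were therefore called higher, with a median log2 difference of 1.08 against 0.01 over all probes. Of all probes 5.73% were called higher there, and 48.1% of the study's list, from which the members come. In V+S- against V-S- it was again 5 of 5, where 6.3% of probes and 53.1% of the study's list were called higher, with medians of 1.03 and 0.01. The V+S- arrays serve in both. Every member was higher in V+S- in each of 20 processing settings. Several settings reuse the same log2 differences. Leaving out a sample could not reverse a sign either, since every Venus-positive sample lay above every Venus-negative one. The calls depended on single arrays, over the whole array as well as for the members. Leaving out V-S+ of either clone, or V+S- of clone 16.1, left no member called against V-S+, and 0 of 29484 probes were called higher, where 1688 had been. Without V+S- of clone 5.1, 2 members and 1018 probes were called, and without V-S- of either clone 3 members and 817 probes. Against V-S-, no member and 0 probes were called higher without V-S- of either clone or without V+S- of clone 16.1, where 1858 probes had been, and 2 members and 1341 probes were without V+S- of clone 5.1.

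**Figure D2:**
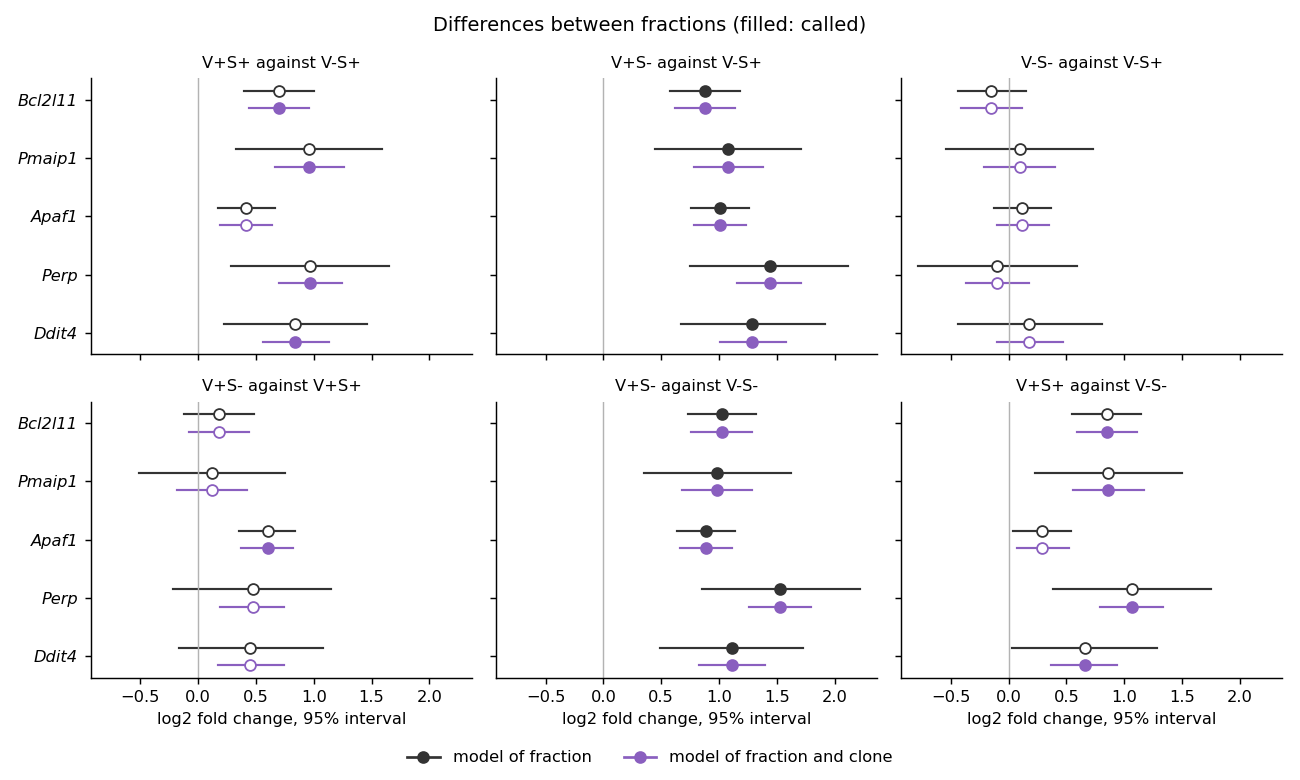
Log2 fold change of each member (points) with its 95% interval (lines) for the 6 pairs of fractions, from the model of fraction alone (black) and the model of fraction and clone (violet), with filled points where the member was called. Each difference is the same in both models, and in V+S+ against V-S+ the call changes from 0 of 5 members to 4 of 5 when clone enters the model.

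The step from V-S+ to V+S+ compared ES cells that all carried SSEA-1 and differed in Venus. Perp was higher in V+S+ by 0.97 ± 0.28 (SE, 1.96-fold), Pmaip1 by 0.96 ± 0.26 (1.95-fold), Ddit4 by 0.84 ± 0.26 (1.79-fold), Bcl2l11 by 0.70 ± 0.12 (1.63-fold) and Apaf1 by 0.41 ± 0.10 (1.33-fold). The sizes depended on single samples. Without V+S+ of clone 16.1 the difference was 0.58 for Pmaip1, 0.61 for Perp and 0.53 for Bcl2l11, and without V+S+ of clone 5.1 it was 1.35, 1.33 and 0.87. Ddit4 was at 0.53 without V-S+ of clone 16.1 and at 1.15 without V-S+ of clone 5.1, and Apaf1 at 0.29 and 0.53. These fits held no term for clone, so a difference between clones enters them. Within clones 5.1 and 16.1 the difference was 0.70 and 1.22 for Pmaip1, 0.83 and 1.11 for Perp and 0.47 and 0.94 for Bcl2l11. It was 0.65 and 1.04 for Ddit4 and 0.26 and 0.57 for Apaf1. In limma's fit of fraction alone none of the 5 was called, at adjusted p between 0.147 and 0.201, and 0% of all probes were called higher, although 5 of 5 had an unadjusted p under 0.05, as did 5514 of 29484 probes. With clone as a block, 4 of 5 were called (limma, adjusted p between 0.00441 and 0.00881), where 3.87% of all probes and 25.5% of the study's list were called higher. Apaf1 passed the FDR there (adjusted p = 0.0257) but not the 1.5-fold threshold. The comparison shares its V-S+ arrays with that of V+S- against V-S+.

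Cells of V+S+ and V-S- differ in both markers. The members differed here by 1.07 ± 0.28 (Perp), 0.86 ± 0.26 (Pmaip1), 0.85 ± 0.12 (Bcl2l11), 0.66 ± 0.26 (Ddit4) and 0.29 ± 0.10 (Apaf1), higher in V+S+. None of the 5 was called in limma's fit of fraction alone (adjusted p between 0.0635 and 0.207), where 0% of all probes were called higher. An unadjusted p under 0.05 was found for 5 of 5 members and for 6605 of 29484 probes. With the clone block 4 of 5 were called, Apaf1 being the exception (adjusted p = 0.0609), and 4.76% of all probes were called higher. Without the clone block, 3 of 5 were called once V+S+ of clone 5.1 was left out, as were 867 of 29484 probes. With that sample left out Perp differed by 1.43 and Pmaip1 by 1.25, and without V+S+ of clone 16.1 by 0.70 and 0.48. Ddit4 was at 0.38 without V-S- of clone 16.1 and at 0.94 without V-S- of clone 5.1.

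Among Venus-positive cells, Apaf1 differed most with SSEA-1 in the mean of the clones, while in clone 5.1 Perp differed more (0.73 against 0.58). V+S- exceeded V+S+ by 0.60 ± 0.10 for Apaf1 (1.51-fold), by 0.47 ± 0.28 for Perp, by 0.45 ± 0.26 for Ddit4, by 0.18 ± 0.12 for Bcl2l11 and by 0.12 ± 0.26 for Pmaip1. Without V+S+ of clone 5.1, Perp was at 0.10, Bcl2l11 at 0.01 and Pmaip1 at -0.27, and without V+S+ of clone 16.1 they were at 0.83, 0.35 and 0.50. Ddit4 ranged from 0.33 to 0.57 and Apaf1 from 0.54 to 0.65 over the samples left out. Within clones 5.1 and 16.1 the difference was 0.73 and 0.20 for Perp, 0.28 and 0.08 for Bcl2l11 and 0.36 and -0.12 for Pmaip1. It was 0.42 and 0.48 for Ddit4 and 0.58 and 0.61 for Apaf1. No member was called by limma in the fit of fraction alone (adjusted p between 0.115 and 0.896), where 0% of all probes were called higher. Apaf1 alone of the members had an unadjusted p under 0.05 there, as did 4429 of 29484 probes. With the clone block Apaf1 was called (adjusted p = 0.0166), where 1.75% of all probes were called higher, and its fold lay at the threshold of 1.5. Perp passed the FDR with the block (adjusted p = 0.0487) at 1.38-fold. In the fit of fraction alone the 95% intervals ran from -0.12 to 0.48 for Bcl2l11 and from -0.51 to 0.75 for Pmaip1. Differences among the members were not tested.

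On a log2 scale set to 0% in V-S+ cells and 100% in V+S- cells, the V+S+ fraction stood at 89.1% for Pmaip1, 79.8% for Bcl2l11, 67.5% for Perp, 65% for Ddit4 and 41% for Apaf1. The position was higher in clone 16.1 than in clone 5.1 for each member. It was 62.8% in clone 5.1 and 92.2% in clone 16.1 for Bcl2l11, and 30.6% and 48.3% for Apaf1. Perp stood at 53.3% and 84.5%, and Ddit4, where the clones were closest, at 60.5% and 68.2%. Pmaip1 was at 66.4% in clone 5.1 and at 111% in clone 16.1, whose V+S+ sample lay above its V+S- sample. These positions are descriptions with 1 sample per clone and fraction, and no test was made of their order among members.

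In cells without Venus the members differed little with SSEA-1. V-S- less V-S+ was between -0.15 (Bcl2l11) and 0.18 (Ddit4), as the mean of the clones. Within clones 5.1 and 16.1 it was 0.15 and 0.21 for Ddit4, 0.08 and 0.12 for Pmaip1, 0.07 and 0.17 for Apaf1, -0.10 and -0.09 for Perp, and -0.20 and -0.09 for Bcl2l11, the same sign in both clones for each member. None was called by limma (adjusted p = 1 for each, 0 of 5 at an unadjusted p under 0.05), and 0% of all probes were called in either direction. In the fit of fraction alone, whose spread includes that between clones, the 95% intervals reached from -0.78 to 0.59 for Perp, the widest, and from -0.13 to 0.37 for Apaf1, the narrowest. Whether Venus made a larger difference among SSEA-1-negative than among SSEA-1-positive cells was tested as an interaction. With all samples it was positive for each member, at 0.56 ± 0.40 for Perp, 0.47 ± 0.15 for Apaf1, 0.32 ± 0.17 for Bcl2l11, 0.27 ± 0.36 for Ddit4 and 0.02 ± 0.37 for Pmaip1, and in the fit of fraction alone none was called (limma, adjusted p between 0.576 and 0.999; 1 of 5, Apaf1, at an unadjusted p under 0.05), nor was any of the other probes (0%). With the clone block 244 probes were called higher and 10 lower, none of them a member (limma, adjusted p between 0.134 and 0.968). Apaf1 and Perp had an unadjusted p under 0.05 with the block, as did 5776 of 29484 probes. In the fit of fraction alone 2340 probes had one. With median centring in place of loess the interaction was 0.87 for Perp, 0.76 for Apaf1, 0.63 for Bcl2l11, 0.59 for Ddit4 and 0.31 for Pmaip1, none called, while the median of all probes moved from 0.01 to 0.20. Without V+S+ of clone 5.1 Perp was at 0.20, Bcl2l11 at 0.15 and Pmaip1 at -0.36, and without V+S+ of clone 16.1 they were at 0.92, 0.49 and 0.41. Ddit4 was at -0.04 without V-S+ of clone 5.1 and at 0.58 without V-S+ of clone 16.1, and Apaf1 at 0.35 and 0.60. The fits with a sample left out held no term for clone, so a difference between clones enters these values. Within clones 5.1 and 16.1 the interaction was 0.27 and 0.27 for Ddit4 and 0.51 and 0.44 for Apaf1. It was 0.83 and 0.30 for Perp, 0.48 and 0.17 for Bcl2l11 and 0.28 and -0.24 for Pmaip1.

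The clones differed in the level of 3 members at an FDR of 0.05, though not in every processing setting. Each clone was sampled once per fraction on 1 slide, so the tests of clones below rest on the residual spread across fractions and hold no spread between repeat cultures of a clone. Averaged over fractions, clone 16.1 exceeded clone 5.1 by 0.46 ± 0.08 for Perp (limma, adjusted p = 0.00996) and by 0.40 ± 0.09 for Pmaip1 (adjusted p = 0.0206), while Ddit4 was lower in clone 16.1, with a log2 difference of -0.40 ± 0.08 (adjusted p = 0.0171). With the authors' values none of the 3 passed this FDR (adjusted p of 0.0737 for Perp, 0.107 for Pmaip1 and 0.0935 for Ddit4), nor did any in the test without moderation. With the scanner software's signals Perp alone did, at 0.0394, with Pmaip1 at 0.0622 and Ddit4 at 0.0528. Pmaip1 was at 0.0636 without V+S- of either clone, and Ddit4 at 0.0542 without V-S- of either clone. Bcl2l11 differed by 0.08 ± 0.08 and Apaf1 by -0.05 ± 0.07. At an FDR of 0.05 alone 26.2% of all probes differed between clones, and none of the 5 members exceeded 1.5-fold as well, which 2.14% of all probes did. The difference by Venus was 0.78 in clone 5.1 and 1.17 in clone 16.1 for Ddit4, 0.71 and 1.02 for Bcl2l11, and 0.51 and 0.79 for Apaf1. For Perp it was 1.24 and 1.26. Pmaip1 differed by 0.25 ± 0.15 more in clone 16.1. In a model with a term for clone by Venus, added after the data were seen, Ddit4 passed an FDR of 0.05 (difference 0.39 ± 0.07; limma, adjusted p = 0.0398), as did 3.79% of all probes, and the adjusted p of the other members lay between 0.105 and 0.979.

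**Figure D3:**
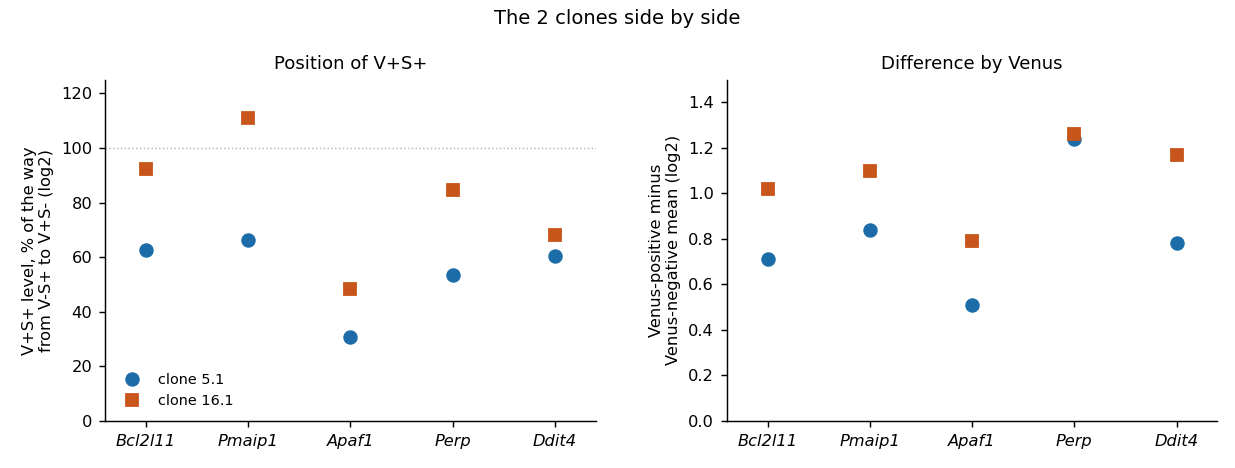
For each member, the left panel gives the level of V+S+ cells as a percentage of the way from V-S+ to V+S- on the log2 scale, and the right panel the mean of the Venus-positive less that of the Venus-negative samples (log2), with 1 point per clone. Clone 16.1 lies above clone 5.1 in every pair, by least for Perp on the right (1.26 and 1.24), and Pmaip1 of clone 16.1 is past the 100% line at 111%.

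Across the 8 samples the members followed each other, with Pearson's r between 0.69 and 0.97 over 10 pairs and a median of 0.86. These samples share 2 slides and fall into Venus-positive and Venus-negative groups, so the correlations are given as a description. Among named probes, the profiles most like Bcl2l11 were Sft2d2 (r = 0.998), Rassf1 (0.995) and Susd4 (0.994), and those most like Pmaip1 were Kif21a (0.998), Csmd2 (0.998) and Rgmb (0.997). Perp was closest to Reep5, Grip1 and Gm1673, each at 0.997. Apaf1 was closest to Pold4 (0.993), Dynlt3 (0.993) and Hsdl2 (0.992). Ddit4 had no partner as close, its nearest being 9330159N05Rik (0.979), Ccng2 (0.96) and Kiss1r (0.958).

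The members were next set beside the rest of their pathways, as far as the rows used of the study's list paired those genes with a probe. That list was selected on these samples, so the counts below describe genes already known to vary here and are no test of a pathway. Of 40 genes of the p53 pathway, 13 could be named, 4 of them members, and 12 of the 13 were called higher in V+S- against V-S+, with a median log2 difference of 1.08. In the same direction 48.1% of the 1998 probes of the study's list were called, against 5.73% of all probes. Fas, a death receptor, differed by 1.57 ± 0.19 (adjusted p = 0.0129), Plk2, a kinase of the centrosome cycle, by 1.56 ± 0.33 (adjusted p = 0.0312) and Ier5 by 1.42 ± 0.22 (adjusted p = 0.0177). Ccng1, a cyclin, differed by 1.21 ± 0.19, Trp53inp1, a p53-induced nuclear protein, by 0.91 ± 0.09, and Mdm2, the ubiquitin ligase that restrains p53, by 0.90 ± 0.10. The remaining gene was Cdkn2a, source of the ARF inhibitor of MDM2, at 0.31 ± 0.09 (adjusted p = 0.0679). Trp53 itself was not analysed here. From V-S+ to V+S+ the 13 genes differed by between 0.28 (Mdm2) and 0.97 (Perp), with a median of 0.51. None of them was called there without the clone block and 5 were with it, where 3.87% of all probes and 25.5% of the study's list were called higher.

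In the BCL-2 family 3 of 24 genes could be named, the 2 BH3-only members and Bcl2, the survival protein that BIM binds. Bcl2 had log2 ratios of -1.47 and -1.16 in V-S+, -1.74 and -1.17 in V-S-, -0.60 and -0.04 in V+S+ and -0.76 and -0.39 in V+S- cells of clones 5.1 and 16.1. All 4 Venus-positive samples were above the Venus-negative ones, and in both clones V+S+ was the highest fraction. It was called in Venus-positive against Venus-negative cells (0.93 ± 0.19; limma, adjusted p = 0.0201), beside 0.86 ± 0.09 for Bcl2l11 and 0.97 ± 0.19 for Pmaip1, and in V+S- against V-S+ only with the clone block (0.74 ± 0.27; adjusted p = 0.106 without the block). Of 25 genes of the apoptosome, caspases and their inhibitors, 2 could be named. Beside Apaf1 this was Cyct, the testis form of cytochrome c, which differed in the other direction (-0.90 ± 0.21 in Venus-positive against Venus-negative cells; adjusted p = 0.0288). Of 19 genes of the stress response and of mTORC1 restraint 5 could be named, and 3 were called higher in V+S- against V-S+: Ddit4, its paralog Ddit4l (1.05 ± 0.16; adjusted p = 0.0177) and Gadd45b (0.65 ± 0.15; adjusted p = 0.0367). Atf3, a stress-induced transcription factor, differed by 0.84 ± 0.33 (adjusted p = 0.121) and was called with the clone block, which made it 4 of the 5. Gadd45g, the remaining gene, was at 0.51 ± 0.15 (adjusted p = 0.0589) and at -0.17 ± 0.15 in V+S+ against V-S+. The counts without the block stand beside 5.73% of all probes and 48.1% of the study's list called higher in V+S- against V-S+. With the clone block 2615 of 29484 probes were called higher there.

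**Figure D4:**
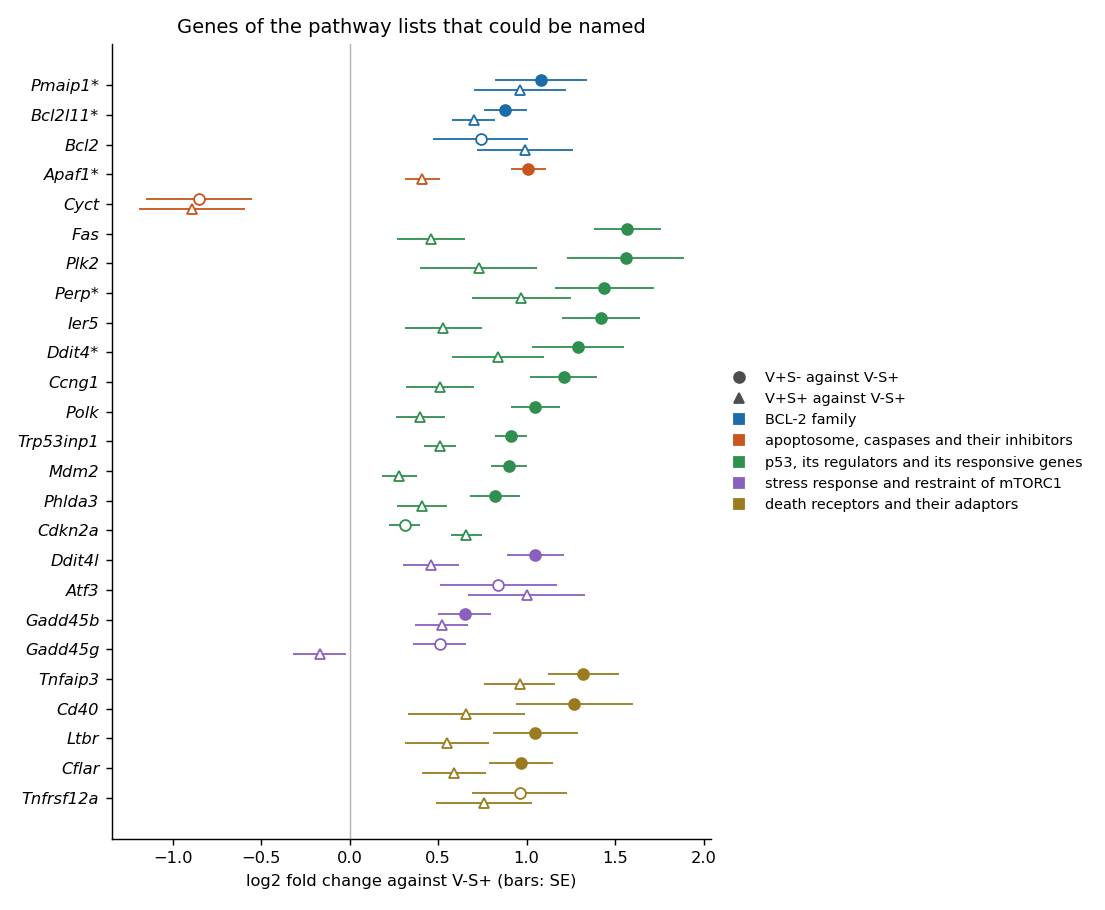
Log2 fold change with its SE (x axis) of each pathway gene that could be named (rows; members marked with an asterisk) in V+S- against V-S+ (circles) and V+S+ against V-S+ (triangles), coloured by list and filled where called without the clone block. Both comparisons share the V-S+ arrays; no triangle is filled, and Cyct is the gene that lies below 0 in both.

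Markers of cell types moved along the same axis. Of 20 PrEn markers 8 could be named, and their median log2 ratio was between -1.60 and -1.34 in Venus-negative and between -1.22 and -0.25 in Venus-positive samples, with 7 of 8 called higher in V+S- against V-S+ (5.73% of all probes, 48.1% of the study's list). Of 20 pluripotency markers 5 could be named, with medians between 1.44 and 1.59 in Venus-negative and between 0.49 and 1.33 in Venus-positive samples. In V+S- against V-S+ 4 of 5 were called lower (1.28% of all probes, 11.6% of the study's list). They did not move as a group in V+S+ against V-S+, where Pou5f1 (Oct4) differed by 0.22, Tdgf1 by 0.06, Gdf3 by -0.07, Nanog by -0.72 and Dppa3 by -1.37. The 2 trophoblast markers of 8 that could be named had medians between -1.15 and -0.73 and between -0.37 and 0.28. Of 10 neuroectoderm and 10 mesoderm markers 1 each could be named, at between 0.29 and 0.59 and between 0.32 and 0.71 in Venus-negative samples, and at between -0.48 and 0.26 and between -0.10 and 0.10 in Venus-positive ones. All of these marker probes were well above background in every sample. The part of this shift in cell type markers in the difference of the 5 members was not tested.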

How the data were processed

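RNA from 4 sorted fractions of 2 HV ES cell clones was hybridised with a Cy5-labelled reference to NIA mouse 44K arrays, 8 in all. The authors deposited 16 files of spot intensity in both channels, 2 scans per array, from Agilent Feature Extraction 9.5.1.1 per the file headers. They also deposited their own log10 values of 25164 probes. Once each probe is centred, these equal the processed Cy3 over Cy5 ratios, and the level each probe was set to is unknown. The file headers name a different array design number from the methods. Mean signals were corrected with normexp (offset 50), normalized by loess without control spots, and averaged over scans with limma 3.58.1 (R 4.3.3). Outlier spots were treated as missing. Probes well above background in both samples of a fraction (29495 of 42006) and complete in all 8 (29484) were tested. Median Cy3 signal was between 2.364 and 2.873 times background per sample, no spot was saturated, and the number of arrays limits the precision.

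Limma was fitted to all 8 samples with fraction as the term, and p-values were adjusted by the Benjamini-Hochberg method over all probes. The clone number pairs the samples, since the 4 fractions of a number come from one line. Deviations of clones from the fraction means correlated across probes between fractions at r between 0.59 and 0.81 over 6 pairs, so a fit with clone as a block was made too. The 2 clones are separate lines. In the fit of fraction alone p-values measure the spread between them, and in the fits with clone the spread left after the clone means are taken out. Alternatives were the scanner software's signals, no background correction, median centring, Cy3 alone, other filters on dim probes, either scan, the authors' values, leaving out single samples, and a test without moderation. The scripts were tested on simulated data.

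No gene names stand in the files, and 1998 rows of the study's list gave the symbols. Its remaining rows were not used here, so further probes of members or pathway genes may be among them. Genes were named by a rule: the 5 members, the 3 largest rises and falls of each pathway list in V+S- against V-S+, and Bcl2, Mdm2, Ccng1, Trp53inp1, Fas and Ddit4l. Cdkn2a and Gadd45g were named after their values were seen. For each member the 3 named probes of highest Pearson's r over the 8 samples are given. Members, lists and tests were chosen with earlier results of these data known. Promoters and their coordinates come from RefSeq (GRCm38.p6). The probes carry no position in the files.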

Additional observations from a re-analysis of the deposited data

Results flagged for a closer look

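Pmaip1 went in opposite directions in the clones between the Venus-positive fractions. V+S- less V+S+ was 0.36 on the log2 scale in clone 5.1 and -0.12 in clone 16.1, and the interaction of Venus and SSEA-1 was accordingly 0.28 in clone 5.1 and -0.24 in clone 16.1. Each value rests on 1 sample per fraction, and the difference between the clones was not tested. Repeat scans of Pmaip1 differed by at most 0.03.

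The difference of Ddit4 between Venus-positive and Venus-negative cells was larger in clone 16.1 than in clone 5.1, by a test added after the data were seen. That test was run in the main processing alone. Venus-positive exceeded Venus-negative cells by 0.78 in clone 5.1 and by 1.17 in clone 16.1 (difference 0.39 ± 0.07; limma, adjusted p = 0.0398), and clone 5.1 had the higher level in each of the 4 fractions. The slides differed with the clones, and the test holds no spread between repeat cultures of a clone. It takes the fractions of each single line as its replicates.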

How the results depend on the processing

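The sign of every member's difference in V+S- against V-S+, V+S- against V-S-, V+S+ against V-S+ and Venus-positive against Venus-negative cells was the same in all 20 settings. In many of these it could not change. The clone block, the test without moderation and the other filters reuse the main log2 differences. The authors' values repeat the differences of the scanner software's signals. Leaving out a sample cannot reverse a sign where all Venus-positive samples lie above all Venus-negative ones. The number called moved. With clone as a replicate block it went from 0 to 4 of 5 in V+S+ against V-S+, from 0 to 4 in V+S+ against V-S- and from 0 to 1 in V+S- against V+S+, and the block changed the count in no other comparison. Pmaip1 was not called in V+S- against V-S+ with the scanner software's signals (limma, adjusted p = 0.0585) or with median centring (0.0566). It was not called in V+S- against V-S- with the scanner software's signals (0.0679), and 4 of 5 members were called there without a filter on dim probes. With the authors' values, 1 member was called in V+S- against V-S+ and 2 in V+S- against V-S-, and without moderation of the variance 1, 2 and, in Venus-positive against Venus-negative cells, 2. Probes called higher over the whole array fell too, to 306 and 487 with the authors' values and to 306, 316 and 424 without moderation. With median centring they rose from 1858 to 3744 in V+S- against V-S-, where the median of all probes was 0.13. The cause was not tested. With each sample left out in turn, members called ranged from 0 to 5 in V+S- against V-S+ and in V+S- against V-S-, from 0 to 3 in V+S+ against V-S- and from 3 to 5 by Venus, while probes called higher ranged from 0 to 2041, 0 to 2181, 0 to 867 and 397 to 2299 of 29484. Small differences that were never called changed sign. With median centring, where the median of all probes shifted by -0.12 in V-S- against V-S+, Pmaip1 was at -0.09, Apaf1 at -0.06 and Ddit4 at -0.05 there, and Apaf1 at 0.01 between clones. The Pmaip1 interaction was -0.03 with the scanner software's signals and with the authors' values. With samples left out, V-S- against V-S+ ranged from -0.05 to 0.24 for Pmaip1, from -0.32 to 0.13 for Perp and from -0.13 to 0.50 for Ddit4, V+S- against V+S+ from -0.27 to 0.50 for Pmaip1, the interaction from -0.36 to 0.41 for Pmaip1 and from -0.04 to 0.58 for Ddit4, and the difference of clones from -0.10 to 0.01 for Apaf1. Where 1 sample of a fraction was left, it was assumed to vary like the other fractions. Fits with a sample left out held no term for clone, so a difference between clones enters their values. The number of arrays limits the precision.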

Other observations

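A further list held death receptors, other receptors of the TNF family and their adaptors and regulators. Of its 16 genes 6 could be named through the study's list, and 5 were called higher in V+S- against V-S+, with a median log2 difference of 1.16, where 5.73% of all probes and 48.1% of the study's list were called higher. With the clone block all 6 were called, and 2615 of 29484 probes were called higher. Beside Fas (1.57 ± 0.19), the largest differences were those of Tnfaip3, the ubiquitin-editing inhibitor of NF-kappaB signalling, at 1.32 ± 0.20 (limma, adjusted p = 0.0169), and Cd40, a receptor of the TNF family that is not a death receptor, at 1.27 ± 0.33 (adjusted p = 0.0466). Cflar, the inhibitor of caspase-8 known as FLIP, differed by 0.97 ± 0.18 (adjusted p = 0.0242), a gene named after its value was seen. In V+S- against V-S- all 6 were called higher, with a median of 1.30, where 6.3% of all probes and 53.1% of the study's list were. The list was selected on these samples, and the counts describe genes already known to vary in them.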
